A study of Mus musculus with 6 samples.

Results

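The small leucine-rich proteoglycans (SLRPs) are secreted matrix proteins whose core is a row of leucine-rich repeats. Most carry chondroitin, dermatan or keratan sulfate chains. They bind collagen fibrils, set how the fibrils assemble and space, and hold growth factors such as transforming growth factor beta and bone morphogenetic proteins in the matrix. In bone, biglycan is known as a major proteoglycan, osteomodulin as a keratan sulfate proteoglycan of mineralized matrix, and asporin and osteoglycin as products of matrix-forming and fibrous tissues. The 10 SLRP genes described here were taken by name from the 56196 genes of the count table. They are Bgn and Aspn of class I, Lum, Fmod, Omd, Prelp and Kera of class II, Ogn and Epyc of class III, and Chad of class IV.

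RNA was measured by sequencing in 6 mouse osteosarcomas. The 3 DKO tumours had the genotype Osx1-Cre;Rb1lox/lox;p53lox/lox, in which the Cre driver Osx1 (Sp7) is active in cells of the osteoblast lineage and removes floxed Rb1 and p53. The 3 TKO tumours had the same alleles together with SKP2-/-, so that the floxed Rb1 and p53 alleles and the Cre driver are shared by both groups and SKP2 is the named difference. In each group replicate 1 was male and replicates 2 and 3 were female, and tumours are named here by group and replicate number (DKO1 to DKO3 and TKO1 to TKO3). The labels give no age and do not say whether the tumours of a group are from different mice, so p-values measure only the spread between these samples. In bulk tumour RNA, fewer cells of a type and less RNA per cell cannot be told apart.

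Depth was 17063231 to 22488819 gene counts per tumour. Skp2, the targeted gene, had 20, 64 and 46 counts in DKO1 to DKO3 and 0 counts in each TKO tumour, at least 49.4-fold lower (edgeR quasi-likelihood test with Benjamini-Hochberg adjustment, adjusted p = 0.0284). The floxed genes were not equal between the groups: Rb1 was at 21.3, 17.9 and 22.5 CPM in DKO1 to DKO3 and at 91.7, 52.2 and 44.9 CPM in TKO1 to TKO3 (log2 fold change 1.61, adjusted p = 0.0419 in edgeR), and Trp53 at 6.87, 6.03 and 7.36 CPM in DKO and 8.46, 37.8 and 21.9 CPM in TKO (log2 fold change 1.75, adjusted p = 0.115). Counts per gene do not separate deleted from intact exons. TKO1 stood apart from its group. The correlation of log2 CPM (a gene's counts scaled to the effective library size after TMM normalization, the unit of all levels here unless another is named) across genes was 0.83 and 0.805 between TKO1 and the other TKO tumours, 0.915 between TKO2 and TKO3, and 0.933 to 0.954 among the DKO tumours. Markers of the labelled tissue were uneven: Sp7, the osteoblast transcription factor, was at 7.97, 0 and 0.416 CPM in DKO1 to DKO3 and 0, 206 and 433 CPM in TKO1 to TKO3, and Ibsp, which encodes bone sialoprotein, was at 0 in DKO2, DKO3 and TKO1. Markers of other cell types were lower in every DKO tumour than in every TKO tumour: summed endothelial markers were at 9.86 to 11.4 CPM in DKO and 181 to 918 CPM in TKO, macrophage markers at 9.56 to 126 and 1032 to 2974 CPM, skeletal muscle markers at 13.9 to 26 and 646 to 11777 CPM, and erythroid markers at 0.498 to 1.38 and 89 to 1167 CPM. C1qa, C1qb, C1qc, Emcn, Cldn5 and Hbb-bs had 0 counts in all 3 DKO tumours, although the labels describe the samples as fresh tumour tissue. The part of these cell types, and of the tissue taken, in the results that follow was not tested.

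The promoters of the 4 members with the widest gap in level between DKO and TKO tumours are shown first, because 3 of them lie side by side on chromosome 13 and the values below turn on them. Each is the 250 bases before the RefSeq start of the gene on the plus strand of GRCm38.p6, written 5′ to 3′. Fmod is at chr1:134037004-134037253, Aspn at chr13:49544193-49544442, Omd at chr13:49582212-49582461 and Ogn at chr13:49607765-49608014. Capitals mark matches, on either strand, to 4 searched motifs: the TATA box TATAAA, the Runx core TGTGGT, the GC box GGGCGG and the AP-1 core TGANTCA.
Fmod: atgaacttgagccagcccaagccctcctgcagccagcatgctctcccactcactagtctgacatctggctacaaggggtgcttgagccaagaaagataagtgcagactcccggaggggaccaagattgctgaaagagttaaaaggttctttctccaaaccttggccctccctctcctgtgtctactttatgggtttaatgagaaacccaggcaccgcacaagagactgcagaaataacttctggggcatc
Aspn: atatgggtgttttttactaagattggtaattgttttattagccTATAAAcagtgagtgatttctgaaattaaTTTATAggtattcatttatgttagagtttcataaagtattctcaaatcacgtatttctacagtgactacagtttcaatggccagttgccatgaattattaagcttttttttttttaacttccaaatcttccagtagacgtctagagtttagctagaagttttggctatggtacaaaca
Omd: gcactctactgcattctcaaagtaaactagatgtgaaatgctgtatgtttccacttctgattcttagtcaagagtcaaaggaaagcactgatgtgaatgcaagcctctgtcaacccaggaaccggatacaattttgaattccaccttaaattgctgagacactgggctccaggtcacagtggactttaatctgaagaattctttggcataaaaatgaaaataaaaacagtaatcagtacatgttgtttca
Ogn: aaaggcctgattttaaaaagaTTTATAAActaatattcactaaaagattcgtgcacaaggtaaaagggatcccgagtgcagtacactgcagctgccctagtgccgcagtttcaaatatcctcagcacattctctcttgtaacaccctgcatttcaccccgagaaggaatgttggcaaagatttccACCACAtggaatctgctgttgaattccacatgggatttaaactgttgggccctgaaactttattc

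In these windows Fmod and Omd held none of the 4 motifs. Aspn held the TATA letters at 207 to 202 and at 178 to 173 bases before its start. Ogn held a pair of overlapping TATA matches at 229 to 222 bases, and the Runx core on the opposite strand at 65 to 60 bases before its start. Among 32851 mouse promoters cut in the same way, 12.4% held the TATA letters, 14.0% the Runx core, 32.7% the GC box and 6.75% the AP-1 core. GC content was 30.0% for Aspn, 38.4% for Omd, 42.0% for Ogn and 51.2% for Fmod, against a median of 52.4% over those promoters. A listed promoter was found for 9 of the 10 members. Of the others searched, Bgn held the GC box at 3 positions, the nearest ending at 1 base before its start, and Chad held a TATA match at 28 to 23 bases and a GC box at 108 to 103 bases.

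The SLRPs differed from one another in how they varied between tumours. Bgn was abundant in every tumour and did not pass the test. Ogn and Omd were near 0 in DKO tumours and rose in TKO tumours, Fmod was high in TKO2 and TKO3 and at background in the other 4, and Lum and Prelp varied as much within a group as between groups. Across all genes, 1131 of 15361 tested had an adjusted p under 0.05 (edgeR quasi-likelihood, Benjamini-Hochberg), which is 7.36%, with 4.89% higher and 2.47% lower in TKO. Of the 10 members, 7 were tested, 2 were higher in TKO (Ogn and Omd) and 0 were lower. Both passed the filter on low counts through the TKO tumours, so this count does not describe the family. Over all genes the calls fell to 39 without DKO1, 2 without DKO2, 0 without DKO3, 475 without TKO2 and 331 without TKO3 and rose to 2385 without TKO1. The members called were 0 without DKO1 or DKO3, 1 without DKO2, TKO2 or TKO3, and 3 without TKO1, where Fmod was the third. The median log2 fold change of the 7 tested members, Ogn and Omd included, was 1.73, beside 0.09 over all tested genes. Without TKO1 it was 3.10 over 8 tested members, Fmod included, beside 0.04. Both medians rest on the same filter, so they do not describe the family either.

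**Figure D1:**
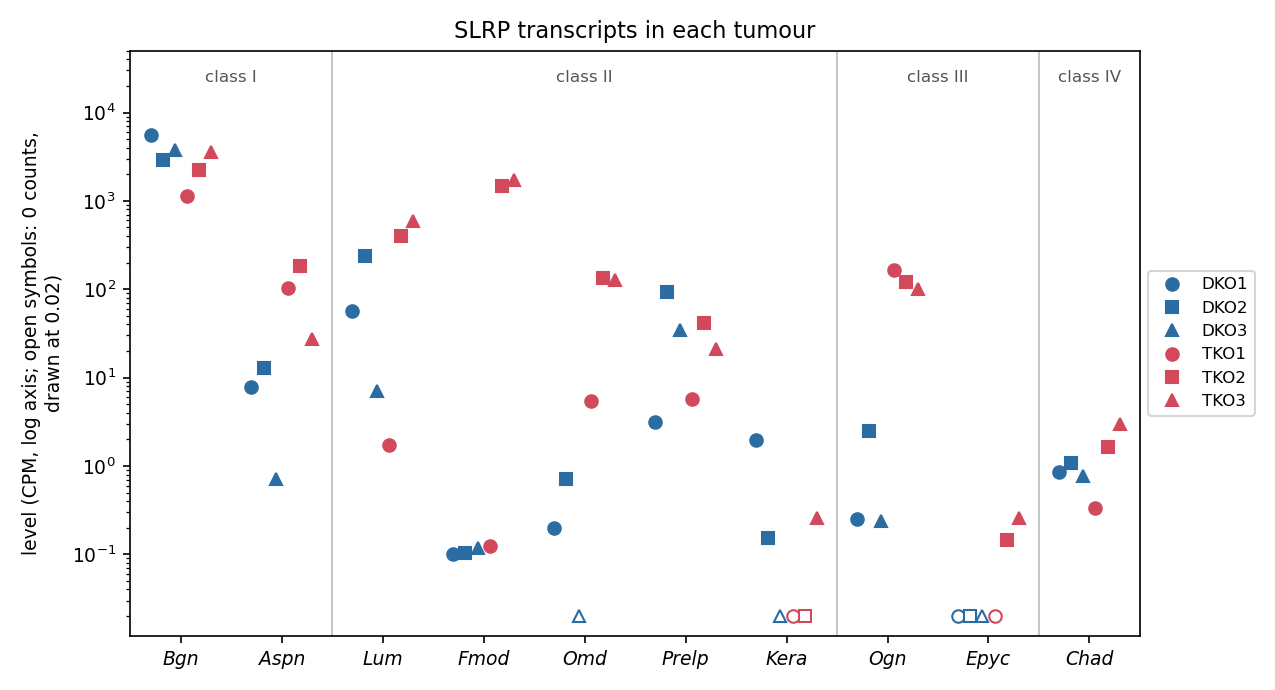
Level of each SLRP in each of the 6 tumours, in CPM on a log axis, with 1 symbol per tumour and open symbols for 0 counts. Bgn is above 1000 CPM in every tumour, Ogn is above 100 CPM in the TKO tumours and at or below 2.5 CPM in the DKO tumours, and Fmod is high in TKO2 and TKO3 alone.

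Class I holds the SLRPs that can carry chondroitin or dermatan sulfate. Bgn encodes biglycan, which binds collagen and growth factors and can signal through toll-like receptors when released. It lies at chrX:73483602-73495933 (GRCm38). It was at 5534, 2897 and 3775 CPM in DKO1 to DKO3 and at 1146, 2227 and 3578 CPM in TKO1 to TKO3. TKO1 was the lowest and DKO1 the highest of the 6, and TKO3 lay between DKO2 and DKO3, so the groups overlapped. The group means were 4069 ± 1342 CPM in DKO and 2317 ± 1219 CPM in TKO (SD, n = 3). The log2 fold change of -0.81 (SE 0.53) did not pass edgeR's test (Benjamini-Hochberg adjusted p = 0.385), and without TKO1 it was -0.49 (SE 0.46).

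Aspn encodes asporin, which binds collagen and transforming growth factor beta and, unlike biglycan, lacks sites for glycosaminoglycan chains. It lies at chr13:49544443-49567565. It was at 7.82, 12.9 and 0.712 CPM in DKO1 to DKO3 and at 102, 184 and 27.2 CPM in TKO1 to TKO3. Every TKO tumour lay above every DKO tumour, with DKO3 and TKO3 the lowest of their groups. The log2 fold change was 3.87 (SE 1.11) and did not pass the threshold in edgeR's test (Benjamini-Hochberg adjusted p = 0.0852), nor without TKO1 (adjusted p = 0.0772). DESeq2 gave an adjusted p of 0.000903, in a test that called 11.7% of all genes higher in TKO.

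The class II SLRPs are those that can carry keratan sulfate or sulfated tyrosines. Fmod encodes fibromodulin, which binds type I collagen fibrils and guides their growth in tendon and bone. It lies at chr1:134037254-134048277. It had 2, 2 and 2 counts in DKO1 to DKO3 and 3, 30335 and 33365 counts in TKO1 to TKO3. In CPM these were 0.0996, 0.102 and 0.119 in DKO and 0.125, 1463 and 1701 in TKO. The level in TKO2 and TKO3 was above 1000 CPM, whereas TKO1 differed from the DKO tumours by a single count. Fmod was not tested among all 6 tumours, because a gene had to pass 0.484 CPM at the median library in 3 libraries and Fmod did so in 2. Leaving out TKO1, the TKO tumour at background, lets Fmod pass the filter through TKO2 and TKO3 alone, so the fit describes those tumours and not the group. There the log2 fold change was 13.77 (SE 0.43, edgeR quasi-likelihood, Benjamini-Hochberg adjusted p = 0.000359), in a comparison that called 9.61% of genes higher in TKO. With all TKO tumours and DKO1, DKO2 or DKO3 left out, it did not pass (adjusted p = 0.156, 0.18 and 0.171). With TKO1 and no filter on low counts the log2 fold change was 13.12 and the adjusted p 0.207.

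Omd encodes osteomodulin, also called osteoadherin, a keratan sulfate SLRP of bone that binds cells through integrins. It lies at chr13:49582462-49592822. It had 4, 14 and 0 counts in DKO1 to DKO3 and 130, 2787 and 2493 counts in TKO1 to TKO3. In CPM these were 0.199, 0.715 and 0 in DKO and 5.42, 134 and 127 in TKO. All TKO tumours lay above all DKO tumours, and TKO1 lay between DKO and the other TKO tumours. Among tested genes, 17.3% had every TKO tumour above every DKO tumour, and 3 of the 7 tested members did (Aspn, Omd and Ogn). Omd rose with a log2 fold change of 8.13 (SE 1.62, edgeR quasi-likelihood, Benjamini-Hochberg adjusted p = 0.0341), and without TKO1 the change was 8.67 (SE 0.92, adjusted p = 0.00511). The call was lost without DKO1 (adjusted p = 0.127), DKO2 (0.108), DKO3 (0.117), TKO2 (0.0763) or TKO3 (0.0724), and in limma-voom (0.166), a test that called 4.28% of all genes higher in TKO. Without DKO2 the log2 fold change was 9.62.

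Lum encodes lumican, a class II SLRP that limits the width of collagen fibrils. It lies at chr10:97565128-97572703. It was at 56.3, 237 and 7.06 CPM in DKO1 to DKO3 and at 1.71, 401 and 597 CPM in TKO1 to TKO3. TKO2 and TKO3 were the highest and TKO1 was the lowest of all 6 tumours, and the groups overlapped. The log2 fold change was 1.73 (SE 1.72, edgeR quasi-likelihood, Benjamini-Hochberg adjusted p = 0.569), and 2.31 (SE 1.16, adjusted p = 0.228) without TKO1. It was 3.37 without DKO2 and 1.02 without TKO3, 0.53 with sex as a covariate and 0.65 in limma-voom.

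Prelp encodes prolargin, a basic SLRP that links collagen to heparan sulfate proteoglycans such as perlecan. It lies at chr1:133910304-133921414 on the minus strand. It was at 3.14, 92.1 and 34.9 CPM in DKO1 to DKO3 and at 5.75, 41.6 and 20.9 CPM in TKO1 to TKO3. Replicate 1 was the lowest and replicate 2 the highest in each group, and the groups overlapped. The log2 fold change of -0.93 (SE 1.12) did not pass edgeR's test (Benjamini-Hochberg adjusted p = 0.646) and was 0.24 without DKO2. Prelp shares 9.68% of its exon bases with Gm15851 on the other strand, and these libraries carried no strand mark.

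Kera encodes keratocan, a keratan sulfate SLRP best known from the cornea. It had 39, 3 and 0 counts in DKO1 to DKO3 and 0, 0 and 5 counts in TKO1 to TKO3. DKO1 held most of these counts and the groups overlapped. Kera was too low to be tested.

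The class III member Ogn encodes osteoglycin, or mimecan, a protein of bone and other connective tissues. It lies at chr13:49608046-49624501. It had 5, 49 and 4 counts in DKO1 to DKO3 and 3982, 2504 and 1980 counts in TKO1 to TKO3. In CPM these were 0.249, 2.5 and 0.237 in DKO and 166, 121 and 101 in TKO. The lowest TKO tumour was far above the highest DKO tumour, DKO2, and TKO1 was the highest of the 6, unlike its place for Fmod, Omd and Lum. The group means were 0.997 ± 1.3 CPM in DKO and 129 ± 33.3 CPM in TKO (SD, n = 3). Ogn rose with a log2 fold change of 7.0 (SE 1.05, edgeR quasi-likelihood, Benjamini-Hochberg adjusted p = 0.0191), and the change was 6.77 (SE 1.03, adjusted p = 0.0131) without TKO1. The call was lost without DKO1 (adjusted p = 0.0713) or DKO3 (0.0756) and was kept in limma-voom (0.00764). Without DKO2, the DKO tumour with the most Ogn, the log2 fold change was 9.0.

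Epyc encodes epiphycan, a class III SLRP of growth plate cartilage. It had 0 counts in each DKO tumour and 0, 3 and 5 counts in TKO1 to TKO3, so the groups overlapped at 0. Epyc was too low to be tested, and 40.7% of its exon bases are shared with the antisense gene Gm10754. Of 14 listed chondrocyte markers 5 were tested and 1 was higher in TKO (Comp), beside 4.89% of all genes, and 5 of 8 were higher without TKO1, beside 9.61%. Comp passed the filter on low counts through the TKO tumours alone. Acan, Col9a1 and Matn3 joined the test without TKO1 through TKO2 and TKO3 alone, so these counts do not describe the list. The cartilage markers did not move alike. Acan, which encodes aggrecan, had 0 counts in DKO1 to DKO3 and TKO1 and was at 61.8 and 40.8 CPM in TKO2 and TKO3, while Col2a1 was at 122 CPM in TKO3 and at or below 0.241 CPM in the other 5 tumours. Sox9, the cartilage transcription factor, was at 5.98 to 26.6 CPM in DKO and was the highest in TKO1 (109 CPM, against 17.2 and 27.8 in TKO2 and TKO3), Sox5 was at 14.4 to 28.7 CPM in DKO and 0 to 3.42 CPM in TKO, and Ucma and Snorc had 0 counts in all 6 tumours. Their part in the level of Epyc was not tested.

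The class IV member Chad encodes chondroadherin, a cartilage protein that binds integrins and carries no long sugar chain. It lies at chr11:94565047-94569127. It was at 0.847, 1.07 and 0.772 CPM in DKO1 to DKO3 and at 0.333, 1.64 and 3.01 CPM in TKO1 to TKO3. TKO1 was the lowest and TKO3 the highest, with the 3 DKO tumours between them. The log2 fold change was 0.88 (SE 0.81, edgeR quasi-likelihood, Benjamini-Hochberg adjusted p = 0.54), and it was 0.14 without TKO3.

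**Figure D2:**
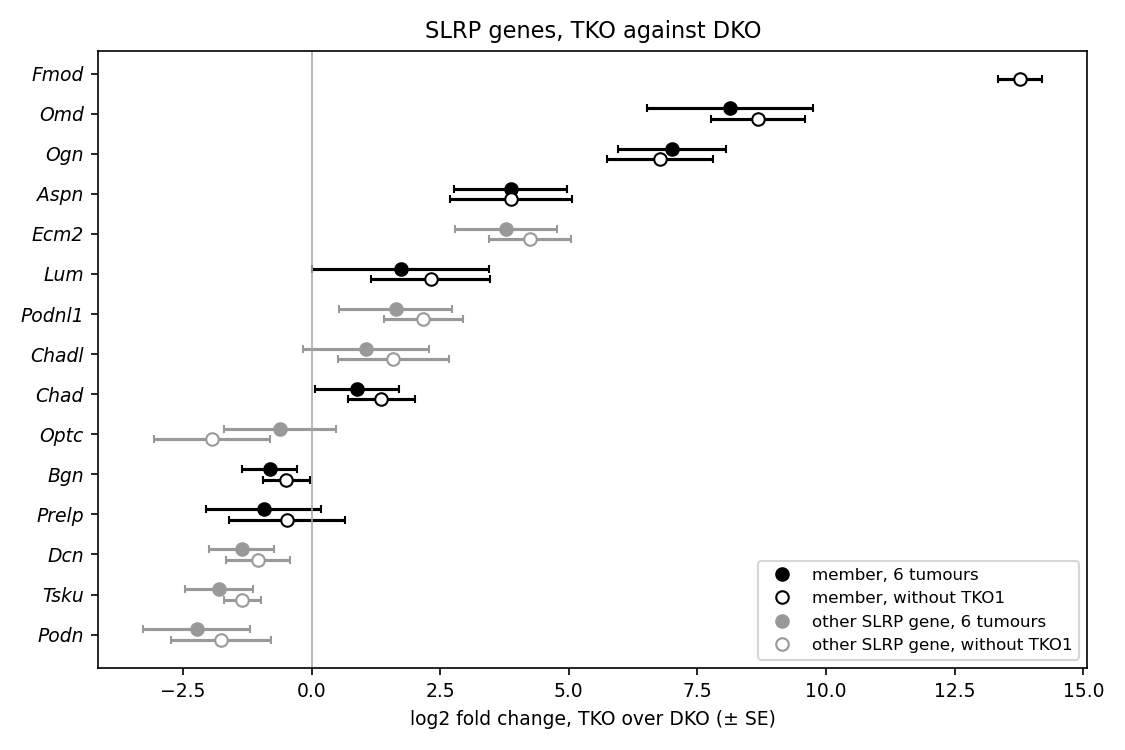
Log2 fold change of TKO over DKO with its SE, for the SLRP members (dark) and the other SLRP genes (grey), from all 6 tumours (filled) and without TKO1 (open). Omd (8.13) and Ogn (7.0) lie far to the right with all tumours, Fmod (13.77) has a fitted value without TKO1, and Bgn (-0.81) and Prelp (-0.93) lie left of 0.

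Most of these genes stand in 3 chromosomal groups, and the members of a group did not move alike in all tumours. On chromosome 13 Ecm2, Aspn, Omd and Ogn follow each other on the plus strand within 119.69 kb. The gaps are 11.654 kb from Ecm2 to Aspn, 14.897 kb from Aspn to Omd and 15.224 kb from Omd to Ogn. All 4 had every TKO tumour above every DKO tumour, a pattern held by 17.3% of tested genes. Ecm2, Omd and Ogn reached the level of the filter on low counts in 3 TKO tumours and in 1 DKO tumour. They were thus tested through the group where they are high, and the count of 4 does not describe the locus. Ecm2, which encodes a matrix protein with leucine-rich repeats, was at 0.896, 0.409 and 0.416 CPM in DKO1 to DKO3 and at 1.75, 17.4 and 4.79 CPM in TKO1 to TKO3. Its log2 fold change was 3.78 (SE 0.99, edgeR quasi-likelihood, Benjamini-Hochberg adjusted p = 0.0676), and its adjusted p was 0.0223 without TKO1 and 0.000433 in DESeq2. The 4 genes kept no common order among TKO tumours: TKO2 was the highest for Ecm2, Aspn and Omd, and TKO1 for Ogn.

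The genes around that group did not share its pattern. The 4 genes lie inside Cenpp, a centromere protein gene on the other strand, which was at 4.73, 3.73 and 3.15 CPM in DKO1 to DKO3 and at 30.0, 6.08 and 1.58 CPM in TKO1 to TKO3 (edgeR quasi-likelihood, Benjamini-Hochberg adjusted p = 0.334). Cenpp was the highest in TKO1 and the lowest in TKO3. The flanking genes Ippk (adjusted p = 0.458), Bicd2 (0.993), Nol8 (0.742) and Iars (0.104) did not pass edgeR's test either, nor did Aspn and Ecm2 of the group itself. Iars was at 278, 279 and 204 CPM in DKO1 to DKO3 and lower in every TKO tumour, at 162, 91.8 and 65.6 CPM.

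On chromosome 10 Dcn, Lum, Kera and Epyc lie on the plus strand within 202.85 kb. Dcn encodes decorin, a class I SLRP and close relative of biglycan that binds collagen and growth factors. It was at 1742, 1913 and 3728 CPM in DKO1 to DKO3 and at 481, 572 and 1826 CPM in TKO1 to TKO3. DKO3 and TKO3 were the highest of their groups, and TKO3 lay between DKO1 and DKO2. Its log2 fold change was -1.36 (SE 0.64, edgeR quasi-likelihood, Benjamini-Hochberg adjusted p = 0.238). Lum, 46.985 kb away from Dcn, had its 2 highest values in TKO2 and TKO3. Dcn was at its lowest in TKO1 and TKO2.

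On chromosome 1 Optc, Prelp and Fmod lie within 151.08 kb, with 2.305 kb between Optc and Prelp and 115.84 kb between Prelp and Fmod. Optc encodes opticin, an SLRP of the eye, and was at 0.448, 4.39 and 2.08 CPM in DKO1 to DKO3 and at 3.29, 0.289 and 0.918 CPM in TKO1 to TKO3. Fmod was the single gene of the group above 1000 CPM in any tumour. The neighbours Btg2 and Atp2b4 were at 12.6 to 30.7 CPM and 103 to 157 CPM in the TKO tumours. They did not pass edgeR's test (Benjamini-Hochberg adjusted p = 0.536 and 0.519). The further neighbours Lax1 and Zc3h11a did not pass it either (adjusted p = 0.1 and 0.117). Lax1 was at 0, 0.153 and 0.237 CPM in DKO1 to DKO3 and higher in every TKO tumour, at 1.21, 2.27 and 0.765 CPM. Lax1 passed the filter on low counts through the TKO tumours alone. Zc3h11a was at 26.6, 48 and 31.2 CPM in DKO1 to DKO3 and lower in every TKO tumour, at 12, 14.7 and 21.2 CPM.

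**Figure D3:**
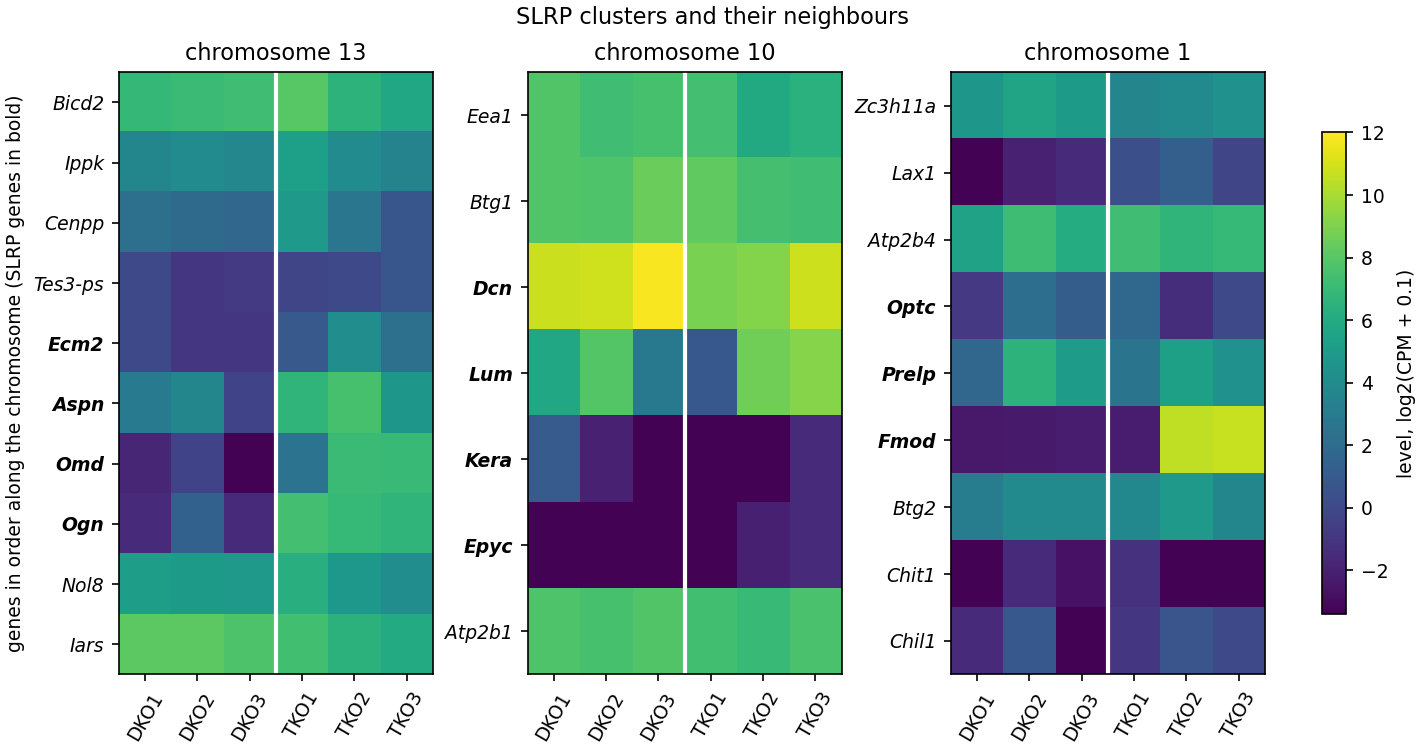
Levels as log2(CPM + 0.1) in the 6 tumours for the genes of the 3 SLRP groups and their neighbours, in order along chromosomes 1, 10 and 13, with SLRP genes in bold. Fmod is at 0.119 CPM or less in DKO and at 0.125 CPM in TKO1, against 1463 and 1701 CPM in TKO2 and TKO3. Aspn, Omd and Ogn are higher in each TKO tumour than in every DKO tumour. Omd and Ogn passed edgeR's test, while Aspn, Ecm2 and the tested flanking genes did not.

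The members were next compared with each other within a tumour on a scale per length, RPKM (CPM per 1000 merged exon bases). Among the 10 members Bgn led in all 3 DKO tumours, at 907, 475 and 619 RPKM. It was at 188, 365 and 587 RPKM in TKO1 to TKO3. Dcn, an SLRP gene that is not among the members, was at 298, 328 and 639 RPKM in DKO1 to DKO3. In DKO3 it was thus above Bgn. Next among the members in DKO, by mean level, were Lum at 40.9 ± 49.4 RPKM, Prelp at 12 ± 12.5 and Aspn at 3.03 ± 2.6 (SD, n = 3). The SD is the spread between tumours and does not measure differences within a tumour. Lum was above Aspn in each of DKO1 to DKO3 (23.0 and 3.32, 96.7 and 5.47, 2.89 and 0.303 RPKM), while the place of Prelp changed. Chad, Ogn, Kera, Omd and Fmod each had a mean below 1 RPKM in DKO, and Epyc was at 0.

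In TKO tumours the order among the members was Bgn at 380 ± 200 RPKM, Fmod at 319 ± 279, Lum at 136 ± 124 and Ogn at 50.4 ± 13 (SD, n = 3). After these came Aspn at 44.3 ± 33.2, Omd at 39.6 ± 32.2 and Prelp at 6.3 ± 4.98. Across tumours the ranges of Bgn, Fmod and Lum overlapped, as did those of Ogn, Aspn and Omd. Within each of TKO1 to TKO3 Bgn was above Lum (188 and 0.698, 365 and 164, 587 and 244 RPKM). Chad was at 0.988 ± 0.796 RPKM, and Epyc and Kera were below it.

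As a share of the summed RPKM of the 10 members, Bgn made up 96.9%, 78.6% and 97.9% in DKO1 to DKO3 and 62.4%, 31.2% and 40.2% in TKO1 to TKO3. The 3 TKO shares were below the 3 DKO shares. In TKO1 the rest was mostly Ogn, at 21.5%, and Aspn, at 14.4%, with Fmod at 0.0126%. In TKO2 and TKO3 Fmod made up 37.9% and 35.2%, Lum 14.0% and 16.7%, Omd 5.11% and 3.87%, and Ogn 4.03% and 2.69%. Among DKO tumours Lum held 16.0% in DKO2 and 2.46% in DKO1, and Prelp held 4.21% in DKO2. The members with the largest shares beside Bgn thus differed between TKO1 and the other TKO tumours. These shares leave out Dcn, which was at 82.5, 98.0 and 313 RPKM in TKO1 to TKO3. In TKO1 Dcn was above Ogn, at 64.7 RPKM, and Aspn, at 43.4 RPKM.

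The length used bears on these shares. The merged exons of Bgn span 6099 bases and its principal transcript 2419 bases. With principal transcript lengths, a setting added after the data were seen, the share of Bgn was 80.7%, 52.6% and 62.1% in TKO1 to TKO3 and 98.8%, 90.2% and 99.1% in DKO1 to DKO3. The TKO shares again lay below the DKO shares. In TKO2 Fmod ranked above Bgn with merged exons and below it with principal transcripts.

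**Figure D4:**
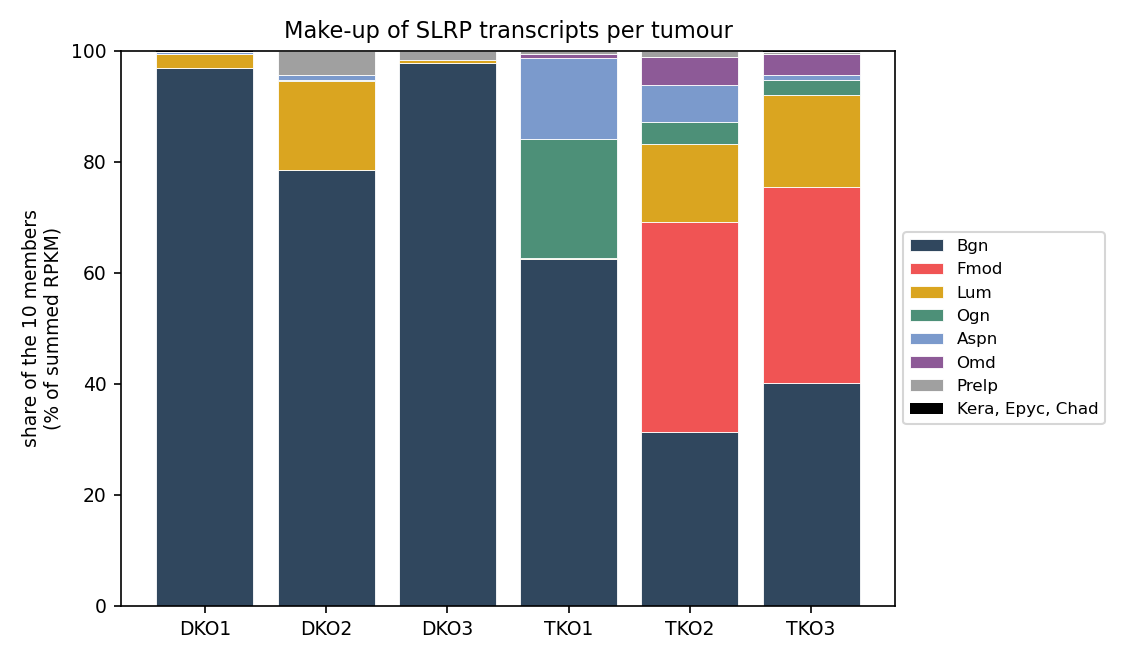
Stacked bars of the share of each member in the summed RPKM of the 10 members, which do not include Dcn, in percent, for each tumour. Bgn fills 78.6% or more of each DKO bar and 31.2 to 62.4% of each TKO bar, with Fmod and Lum filling much of TKO2 and TKO3 and Ogn and Aspn filling much of TKO1.

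Because SLRPs bind type I collagen, their levels were set against it, as RPKM per 1000 RPKM of Col1a1 and Col1a2 together. Col1a1 was at 11757, 11220 and 9947 CPM in DKO1 to DKO3 and at 209, 30231 and 26908 CPM in TKO1 to TKO3, so TKO1 held far less of this transcript than any other tumour. Bgn was at 339, 222 and 314 per 1000 RPKM in DKO1 to DKO3 and at 1546, 58.3 and 78.3 in TKO1 to TKO3. Relative to type I collagen, TKO2 and TKO3 were thus below every DKO tumour and TKO1 above all of them.

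Fmod was at 0.0112, 0.0145 and 0.0182 per 1000 RPKM of type I collagen in DKO1 to DKO3 and at 0.311, 70.6 and 68.6 in TKO1 to TKO3. The value of TKO1 rests on 3 counts of Fmod over a low collagen level. Ogn was at 0.0362, 0.456 and 0.0469 in DKO and at 533, 7.51 and 5.25 in TKO1 to TKO3. Both genes had every TKO tumour above every DKO tumour on this scale as well. Aspn was at 1.24, 2.56 and 0.154 in DKO and 358, 12.5 and 1.54 in TKO, with TKO3 below DKO2. Lum was at 8.59, 45.2 and 1.46 in DKO and at 5.75, 26.1 and 32.5 in TKO, and the groups overlapped.

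The difference in mean log2 ratio to type I collagen, TKO minus DKO, was 9.64 for Fmod and 8.23 for Ogn. For both the exact two-sided permutation p was 0.1, the smallest that 20 assignments of 3 against 3 tumours allow, so no member could pass 0.05. The difference was 4.59 for Aspn (exact permutation p = 0.2), 1.03 for Lum (0.7), 0.74 for Chad (0.8), -0.01 for Prelp (1) and -0.58 for Bgn (0.9). Over the 7 members compared, the Benjamini-Hochberg adjusted p of these exact tests was 0.35 to 1. Omd, with 0 counts in DKO3, has no log ratio in that tumour and was left out, as were Kera and Epyc.

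**Figure D5:**
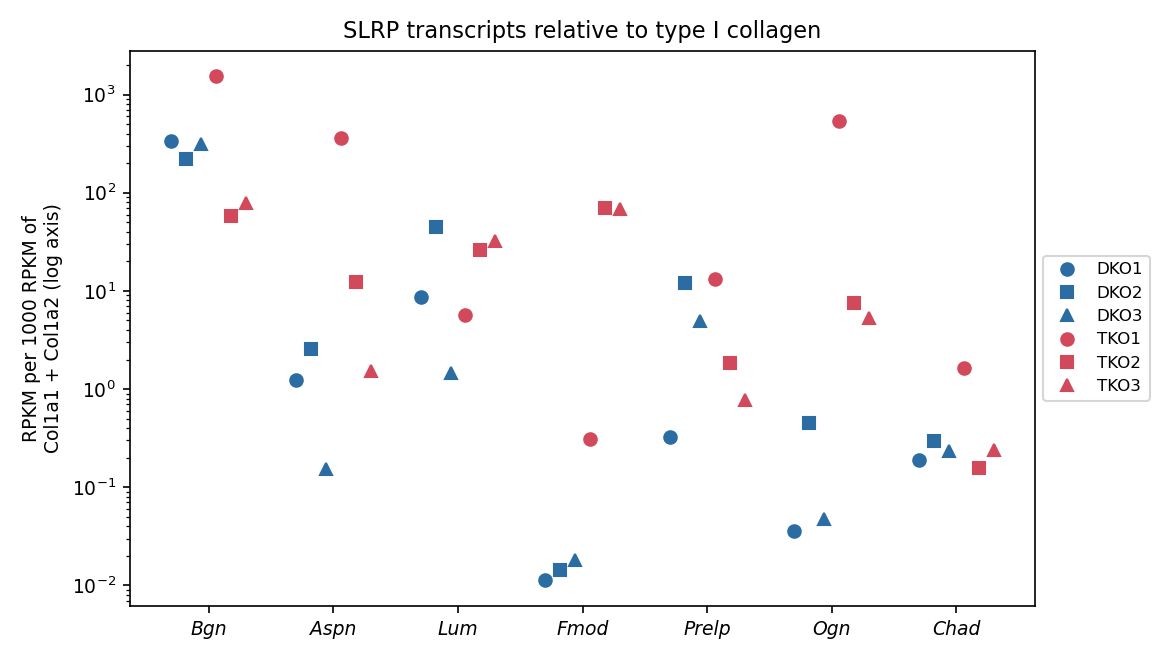
RPKM of each of 7 members per 1000 RPKM of Col1a1 and Col1a2, on a log axis, with 1 symbol per tumour. Bgn is at 222 to 339 in the DKO tumours, at 58.3 and 78.3 in TKO2 and TKO3 and at 1546 in TKO1, where type I collagen is low.

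The other SLRP genes of the mouse gave 7 tested genes of 9 listed. By edgeR's quasi-likelihood test 0 of them passed the adjusted threshold, with 1 higher and 1 lower at an unadjusted p under 0.05, and DESeq2 called 1 higher (Ecm2). Over all genes 25.0% had an unadjusted p under 0.05 and DESeq2 called 19.0%, in either direction. Beside Dcn, Ecm2 and Optc these were Tsku, Podn, Podnl1 and Chadl. Tsku encodes tsukushi, a regulator of bone morphogenetic protein and Wnt signals, and was at 76.9, 149 and 142 CPM in DKO1 to DKO3 and at 8.84, 55.3 and 41.9 CPM in TKO1 to TKO3. Every TKO tumour lay below every DKO tumour for Tsku, a pattern held by 15.6% of tested genes, and its log2 fold change was -1.80 (SE 0.66, Benjamini-Hochberg adjusted p = 0.149 in edgeR). The log2 fold changes of Podn (podocan), Podnl1, Chadl and Optc were -2.23, 1.64, 1.06 and -0.61 (adjusted p = 0.234, 0.401, 0.629 and 0.768 in edgeR). Nyx and Nepn were too low to be tested.

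The genes that build, sulfate, bind or cleave SLRPs mostly did not pass the test. Counts in this and the next paragraph are from edgeR's quasi-likelihood test at a Benjamini-Hochberg adjusted p of 0.05 unless named otherwise, beside 7.36% of all genes called by it, 25.0% with an unadjusted p under 0.05, and 19.0% called by DESeq2. A list of fibril-forming and other collagens, such as Col6a1 and Col12a1, gave 14 tested genes, of which 0 passed. At an unadjusted p under 0.05, 1 was higher and 0 lower, and DESeq2 called 1 higher. The median log2 fold change of these collagens was 0.44. Of 20 tested genes of fibril processing (lysyl oxidases, procollagen proteinases, chaperones) 0 passed, with 3 higher and 4 lower at an unadjusted p under 0.05 and 2 higher and 4 lower by DESeq2. Of 22 tested genes that start and extend chondroitin and dermatan chains 0 passed, with 3 higher and 1 lower unadjusted and 2 higher and 1 lower by DESeq2, and the median was -0.41. Of 8 genes of sulfate supply and tyrosine sulfation 0 passed, with 2 higher unadjusted and 2 by DESeq2. Without TKO1, 2 of the listed collagens were higher, and 3 genes of fibril processing were higher and 2 lower. In each of the other lists 1 gene was higher, beside 14.6% of all genes called in either direction.

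Of 9 tested genes of keratan sulfate synthesis 1 was higher in TKO. This was B3gnt7, which extends the chains that class II SLRPs can carry, with 0 counts in DKO and 207 counts in TKO, at least 60.6-fold higher (adjusted p = 0.0198). It passed the filter through the TKO tumours alone. It was at 3.13, 2.41 and 4.18 CPM in TKO1 to TKO3, and was as high in TKO1 as in the others, unlike Fmod. Of 13 tested proteases known to cleave SLRPs 2 were lower and 0 higher, with 1 higher and 3 lower at an unadjusted p under 0.05 and also by DESeq2. Mmp3, a stromelysin, was at 4425, 1077 and 2047 CPM in DKO1 to DKO3 and at 0.583, 26.7 and 4.84 CPM in TKO1 to TKO3, a log2 fold change of -7.88 (SE 1.57, adjusted p = 0.0343). Adamts1 had a log2 fold change of -2.13 (adjusted p = 0.0486). Of 23 tested receptors and growth factor partners 1 was higher, the vascular receptor gene Kdr (log2 fold change 3.75, adjusted p = 0.0378), which is also an endothelial marker. In that list 5 were higher and 4 lower at an unadjusted p under 0.05, and 5 higher and 3 lower by DESeq2. Of 18 tested proteoglycan-related genes outside the SLRPs 1 was higher, Esm1, which encodes the endothelial proteoglycan endocan (9.57, adjusted p = 0.0156). Esm1 too passed the filter through the TKO tumours alone. In this list 7 were higher and 3 lower at an unadjusted p under 0.05, and 7 higher and 2 lower by DESeq2. Without TKO1, 2 proteases were higher and 2 lower, and 3 receptors and partners were higher and 2 lower. Of the proteoglycan-related genes 5 were higher there, in a comparison that called 14.6% of genes, 9.61% higher.

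Markers of cells that make SLRPs differed between the same tumours, though not in one pattern. Of 14 listed osteoblast markers 9 were tested and 2 were higher in TKO (Dmp1 and Phex), beside 4.89% of all genes. Without TKO1 9 of 12 were higher, beside 9.61%. Dmp1 had 0 counts in DKO and passed the filter through the TKO tumours alone. Bglap, Bglap2 and Ifitm5 joined the test without TKO1 through TKO2 and TKO3 alone, so these counts do not describe the list. The summed level of the osteoblast markers was 388 to 1796 CPM in DKO and 3041 to 13199 CPM in TKO, and Spp1, which encodes osteopontin and did not pass the test (adjusted p = 0.207), held 2911 CPM of the 3041 in TKO1. In TKO1 Sp7, Ibsp and Bglap2 were at 0. Alpl, the alkaline phosphatase of mineralizing cells, was at 8.76, 0.766 and 18 CPM in DKO1 to DKO3 and at 0.0834, 1526 and 2045 CPM in TKO1 to TKO3. Like Fmod it was high in TKO2 and TKO3 and low in TKO1, whereas Phex (44.8, 6.41 and 211 CPM in TKO1 to TKO3) and Spp1 (2911, 1200 and 4848 CPM) were higher in TKO1 than in TKO2.

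Of 19 tested tendon and fibroblast markers 3 were higher (Thbs4, Cilp and Scx) and 1 was lower (Egr1), against 7 and 1 without TKO1, beside 7.36% and 14.6% of all genes called in either direction. Scx, a tendon transcription factor, was at 11.9, 3.63 and 6.83 CPM in DKO1 to DKO3 and at 164, 36.6 and 42.5 CPM in TKO1 to TKO3. It was the highest in TKO1, as Ogn was. Mkx, another tendon transcription factor, was at 10.2, 10.2 and 23 CPM in DKO and 0.542, 7.62 and 0.204 CPM in TKO, and Tnmd was at or below 0.434 CPM in every tumour. Of 9 tested pericyte and smooth muscle markers 6 were higher, as were 10 of 10 endothelial, 11 of 12 macrophage, 12 of 12 skeletal muscle and 4 of 4 tested erythroid markers, beside 4.89% of all genes. Called markers such as Cilp, Rgs5, Myh1, C1qa, C1qb, C1qc, Emcn, Cldn5 and Hbb-bs passed the filter on low counts through the TKO tumours alone. The last 6 had 0 counts in DKO. These shares are therefore not a like comparison with the share of all genes. The part of these cells in the levels of Ogn, Omd, Aspn and Fmod was not tested.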

How the data were processed

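RNA from about 100 mg of tumour was selected on oligo(dT) beads and sequenced, per the labels. The authors deposited raw counts of reads per gene. Per the submitters' processing notes, the aligner was STAR 2.6.1 and the build mm10. Their gene annotation was not given in the sources used. Counting used reads of either strand, and reads in more than 1 gene (5.1 to 6.53% of a library's reads) were set aside in the deposited files.

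From these counts, genes were kept by filterByExpr (minimum count 10), scaled by TMM and compared between groups by edgeR's quasi-likelihood test (edgeR 4.0.16, R 4.3.3) without covariates, with Benjamini-Hochberg adjustment over all 15361 genes (threshold 0.05). This test gave every adjusted p-value unless DESeq2 1.42.0 or limma-voom 3.58.1 is named. Depth was 17063231 to 22488819 gene counts, and a group at 0 was set to a floor of 3 counts. That floor covers counting error only, since reads carried no molecular identifiers. Symbols, exon lengths and positions come from GENCODE M21 (GRCm38, the mm10 assembly), which matched 55154 of 56196 IDs. Promoters come from RefSeq, GRCm38.p6. On simulated counts of 15361 genes (TKO against DKO), 94% of 16-fold and 20.7% of 4-fold changes were recovered. The simulation gave every gene the same dispersion and held no tumour that stood apart, as TKO1 did. These shares therefore do not measure what the test could find in the real counts. There Alpl, with a log2 fold change of 7.02, did not pass edgeR's test (adjusted p = 0.158).

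The members, lists and alternatives were chosen with earlier results of these data known. All members and tested SLRP relatives were named, with up to 4 called genes of each other list. Alternatives covered scaling, filters, sex, replicate numbers, left-out tumours, tools, denominators and lengths.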

Additional observations from a re-analysis of the deposited data

How the results depend on the processing

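Scaling by DESeq2's size factors or by library totals, and sex as a covariate, left Ogn and Omd called. Of the alternative values, 145 kept their direction and side of the threshold or stayed near the main value, 25 moved, 10 lost a call, 3 gained one and 10 reversed. Without a filter on low counts 1 member was called, and Omd had a log2 fold change of 8.08 (adjusted p = 0.134). With at least 1 CPM required in a library of each group, 146 genes and 1 member were called, and Omd was not tested because no DKO tumour reached that level. DESeq2 called 2893 genes and 3 members, with Aspn at 3.88 (adjusted p = 0.000903), and limma-voom called 1 member, with Omd at 7.98 (adjusted p = 0.166).

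Leaving out each tumour in turn gave 0 to 2385 genes and 0 to 3 members called. The count of 0 genes came without DKO3, where 3017 genes had an unadjusted p under 0.05 and the smallest adjusted p was 0.0545. It was 39 genes without DKO1, 2 without DKO2, 475 without TKO2, 331 without TKO3 and 2385 without TKO1. Log2 fold changes ranged from 7.57 to 9.62 for Omd, 6.53 to 9.0 for Ogn, 1.02 to 3.37 for Lum, 0.14 to 1.36 for Chad, -1.26 to -0.49 for Bgn, 3.19 to 4.59 for Aspn and -1.69 to 0.24 for Prelp. Fmod could be fitted without 4 of the tumours, from 13.13 to 13.77, and did not pass without DKO1, DKO2 or DKO3 (adjusted p = 0.156, 0.18 and 0.171). With sex as a covariate Lum was at 0.53 and Chad at 0.53, and limma-voom put them at 0.65 and 0.36. Without TKO1, 86 genes of the related lists were called, against 54. Differences relative to type I collagen ranged from -2.09 to 0.28 for Bgn (above 0 without TKO2 or TKO3), -0.22 to 2.26 for Lum (below 0 without DKO3), -0.29 to 1.41 for Chad (below 0 without TKO1) and -1.53 to 1.07 for Prelp (above 0 without DKO2, DKO3, TKO2 or TKO3). For Prelp the difference was 0.11 with 5 collagens as the denominator. With each tumour left out in turn, the difference relative to type I collagen ranged from 8.33 to 12.2 for Fmod. It ranged from 6.09 to 9.43 for Ogn and from 2.48 to 6.41 for Aspn. The cause of these changes was not tested.

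With the replicate number as a block, 295 genes were called, Omd was at 7.70 (adjusted p = 0.0815), Aspn at 4.20 (0.0367), and Ogn kept its call (0.0471). The same-numbered tumours did not deviate together across genes (correlations -0.00699, 0.00889 and -0.0167). Same-numbered tumours do match in sex, and these correlations cannot show whether they share another source.

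As shares of CPM, Bgn made up 80.3%, 48.7% and 58.1% in TKO1 to TKO3. With principal transcript lengths, added after the data were seen, it made up 90.2% in DKO2 and 80.7%, 52.6% and 62.1% in TKO1 to TKO3. Kera and Epyc, at most 39 counts in a tumour, and Chad, at most 59, are limited by depth.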
